A study of Mus musculus with 59 samples.

Results

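Iron handling and red-cell genes were examined as 10 genes in 59 muscle transcriptomes. The members were taken by symbol from a table of 47643 gene rows, and all 10 symbols were found in it. They comprise the transferrin receptor (Tfrc), the heavy and light ferritin chains (Fth1 and Ftl1), ferroportin (Slc40a1), iron regulatory protein 2 (Ireb2), erythroid aminolevulinate synthase (Alas2), the alpha globins Hba-a1 and Hba-a2 and the beta globins Hbb-bs and Hbb-bt. Their levels were described across 8 groups of libraries from 3 muscles, and the groups were compared by the melanoma the mice carried, by rFibcd1 and by muscle.

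All mice were 4-month-old females of the NCI Ath/nude strain, which lacks T cells. Every mouse carried a human pediatric melanoma grown in the flank. One melanoma causes wasting (cachectic, CAC) and the other does not (non-cachectic, NONCAC), so each melanoma is 1 xenograft line and the contrast between them is a contrast of those 2 tumours. No tumour-free group was analysed here. Diaphragm (Dia) was represented by 10 CAC and 9 NONCAC libraries of mice given mock injections and by 10 CAC and 10 NONCAC libraries of mice given recombinant Fibcd1 (rFibcd1), a muscle-secreted protein injected into the abdomen. Tibialis anterior (TA), a fast limb muscle, and soleus (SOL), a slow limb muscle, had 5 CAC and 5 NONCAC libraries each, and their labels name no rFibcd1. The labels do not tie the libraries to single mice, and the study counts fewer CAC diaphragms than there are libraries, so p-values measure the spread between libraries.

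Iron reaches most cells bound to transferrin, which Tfrc carries inside. Iron that is not used is stored in ferritin, a shell of Fth1 and Ftl1 chains, and leaves the cell only through Slc40a1. When iron is low, the iron regulatory proteins Aco1 and Ireb2 bind short hairpins called iron-responsive elements. Binding in the 5′ UTR of a transcript holds back its translation, and binding in the 3′ UTR of Tfrc protects the transcript from decay. The ferritins and Slc40a1 are therefore controlled largely at translation, which RNA levels do not measure, while the Tfrc transcript itself responds. Skeletal muscle needs iron for myoglobin and the respiratory chain. Alas2 starts heme synthesis in developing red cells and the 4 globin genes encode hemoglobin, so these 5 transcripts are known as marks of red cells and reticulocytes rather than of muscle fibres.

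The annotation placed the 4 hairpin-bearing iron genes and Alas2 on different chromosomes. Hairpins were searched in GENCODE M21 transcripts (GRCm38) as an unpaired C, 5 paired bases, the loop CAGTGN and the 5 partner bases, with G-T pairs allowed. They are shown because they divide the members by their position in the transcript. The loop is in capitals. The 4 matches in the 3′ UTR of Tfrc (chromosome 16, 32608920 to 32632794, plus strand) were, in order:
Tfrc 1: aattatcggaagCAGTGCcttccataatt
Tfrc 2: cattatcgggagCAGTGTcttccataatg
Tfrc 3: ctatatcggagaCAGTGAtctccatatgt
Tfrc 4: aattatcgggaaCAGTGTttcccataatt

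Each of the following 4 genes held 1 element, in the 5′ UTR.
Fth1: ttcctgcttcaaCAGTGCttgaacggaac
Ftl1: gtcttgcttcaaCAGTGTttgaacggaac
Slc40a1: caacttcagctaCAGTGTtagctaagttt
Alas2: ttggttcgtcctCAGTGCagggcaacagg

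Fth1 lies on chromosome 19 (9980598 to 9985098, plus), Ftl1 on chromosome 7 (45457944 to 45459884, minus), Slc40a1 on chromosome 1 (45908068 to 45926523, minus) and Alas2 on chromosome X (150547375 to 150570638, plus). The same letters were found in the 5′ UTR of 31 of 22500 coding genes (0.138%) and in the 3′ UTR of 144 (0.640%). No such match was found in Ireb2 (chromosome 9, 54863789 to 54912530, plus) or in the globin genes. The elements are a description of the transcripts, and binding to them was not measured.

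The values are TPM, a measure of transcript abundance, and are scaled by gene length and by each library's total. Each library therefore sums to the same total, its sequencing depth is unknown, and its number of genes above 0 was between 16436 and 19456. Muscle markers were high throughout, with a summed level of 8 genes, among them Ckm and Acta1, between 36064 and 89490 TPM. The libraries fall into 2 states by the pseudogene Pcna-ps2 (at least 1 TPM, or less). In the diaphragm the high state held 9 of 10 CAC mock, 3 of 9 NONCAC mock, 8 of 10 CAC rFibcd1 and 6 of 10 NONCAC rFibcd1 libraries. In TA and SOL every CAC library was of the high and every NONCAC library of the low state, so melanoma and state cannot be told apart there. The diaphragm library numbered 11 in the table's headings (CAC rFibcd1) stood apart from its group in 4 members, and results that rest on it are given with and without it.

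The red-cell genes were far higher in the diaphragm than in the limb muscles. In the NONCAC mock diaphragms Hbb-bs, the main adult beta globin of this table, was at 1174 TPM at the lowest, 2104 at the median and 5463 at the highest. In NONCAC TA it was at 149, 188, 215, 319 and 481 TPM, and in NONCAC SOL at 278, 356, 484, 537 and 755 TPM. The diaphragm values lay above every limb value. The difference on the log2(TPM + 1) scale was 3.17 (SE 0.453) against TA and 2.30 (SE 0.453) against SOL, with limma adjusted p-values of 1.70e-07 and 0.000119.

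Alas2, the first enzyme of erythroid heme synthesis, followed the same order at a lower level. It was at 9.56, 17.3 and 43.6 TPM (lowest, median, highest) in NONCAC mock diaphragm, at 1.21 to 4.54 TPM in NONCAC TA and at 2.12 to 6.54 TPM in NONCAC SOL. The diaphragm libraries lay above every library of either limb muscle. Its difference was 2.76 (SE 0.387) against TA and 2.12 (SE 0.387) against SOL. Hba-a1, Hba-a2 and Hbb-bt, the remaining globin rows, were higher in diaphragm by 3.05, 3.21 and 3.36 against TA and by 2.16, 2.67 and 2.42 against SOL.

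In all, 10 of 10 members differed between NONCAC diaphragm and TA, 7 higher and 3 lower in the diaphragm, where 72.5% of all 13501 genes tested were called. Against SOL 9 of 10 members differed, 7 higher and 2 lower, against 38.8% of all genes. The Hba-a2 calls rested on groups that overlap, since its highest TA library (123 TPM) and SOL library (177 TPM) exceeded 4 and 6 of the 9 diaphragm libraries. Groups also overlapped for the called members Tfrc, Slc40a1 and Ireb2 against TA, and Tfrc, Ftl1 and Hba-a1 against SOL. Between TA and SOL 3 members were called (Fth1, Ftl1 and Slc40a1), against 69.5% of all genes. With the number in the column headings as a replicate block, 7 members differed between TA and SOL, against 76.7% of all genes. The 4 added were red-cell genes, lower in TA, which were Alas2 (-0.64, adjusted p 0.00766), Hba-a1 (-0.88, adjusted p 0.00356), Hbb-bs (-0.88, adjusted p 0.00538) and Hbb-bt (-0.94, adjusted p 0.00414). The median gene was also lower in TA than in SOL, by -0.468 with and without the block, and 8.62% of all calls with the block were higher in TA. Diaphragm minus TA had a median over all genes of 0.441, and diaphragm minus SOL one of -0.0372. Hbb-bt was also called without TA library 65 (-1.28, adjusted p 0.0389), and Hba-a1 and Hbb-bs with the 2 groups fitted alone (adjusted p 0.0423 and 0.0260). By Dunn's rank test, 7 members differed between diaphragm and TA, against 51.0% of all genes, and 0 between diaphragm and SOL, against 8.73%. The 3 it lost against TA were Fth1, Slc40a1 and Ireb2. The limma count at an unadjusted p under 0.05 for diaphragm against SOL was 9.

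**Figure D1:**
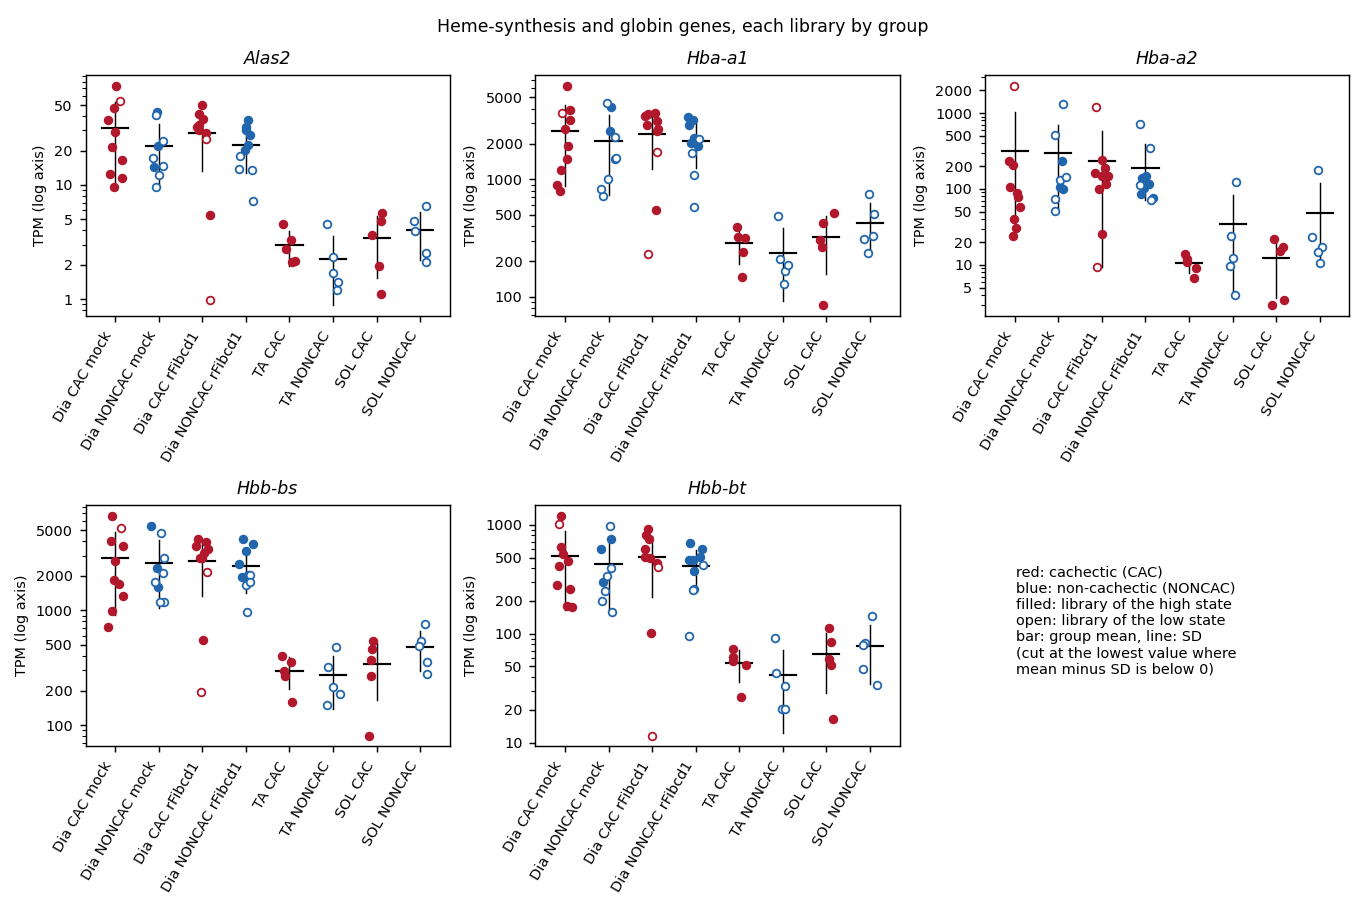
TPM (log axis) of Alas2 and the 4 globin genes in each of 59 libraries, by group (Dia, diaphragm; CAC, cachectic; NONCAC, non-cachectic). Filled points are libraries of the high state and open points of the low state, the bar is the group mean and the line the SD. The diaphragm group means sit above the limb group means, but 2 of 39 diaphragm libraries for Alas2, 4 for Hba-a1, 28 for Hba-a2, 3 for Hbb-bs and 3 for Hbb-bt, with libraries 11 and 5 of the CAC rFibcd1 group among them in each gene, are not above the highest limb value, and CAC and NONCAC groups of the same muscle overlap in every gene.

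Other red cell transcripts were at much lower levels. Of 19 red cell markers in the table, the 5 members and Bpgm, bisphosphoglycerate mutase, were the only ones above 10 TPM in any library. Slc4a1 (band 3, the anion exchanger of the red cell membrane) averaged 0.188 ± 0.155 TPM (SD, n = 39) in diaphragm, 0.0175 ± 0.0176 (SD, n = 10) in TA and 0.0163 ± 0.0154 (SD, n = 10) in SOL. Klf1 and Gata1, transcription factors of erythroid precursors, averaged 0.126 and 0.0574 TPM in diaphragm, and Klf1 was at 0.181 TPM in SOL. Hemgn, Epb42, Ermap and Tspo2 averaged 0.0295, 0.0196, 0.0787 and 0.0129 TPM in diaphragm, and Rhag, Rhd and Kel 0.00417, 0.0164 and 0.00759 TPM. Rhd, Kel and Tspo2 were listed at 0 in all 10 TA libraries. Bpgm went against the globins, with 17.6 ± 2.83 TPM in diaphragm, 41.9 ± 7.27 in TA and 19.2 ± 3.37 in SOL. Fewer red cells in a piece of tissue and less RNA per red cell cannot be told apart in these bulk samples.

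Embryonic and minor hemoglobin rows were near 0. The sum of the 6 other hemoglobin genes found in the table had a median of 0.286 TPM in diaphragm and a highest value of 1.28 TPM. The 4 globin members together made up 0.0445% to 1.44% of all TPM in diaphragm libraries and 0.0185% to 0.167% in the limb muscles.

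The red-cell genes varied together from library to library. After group means were subtracted, Hbb-bs and Alas2 correlated over the 39 diaphragm libraries with Pearson's r of 0.986 and Spearman's rho of 0.983. Both permutation p-values (two-sided, 100000 permutations within groups) were 1e-05, the smallest they can give, and 2e-05 when adjusted over 10 relations. Without the 2 libraries farthest from the median r was 0.976, and it was 0.978 within the 26 libraries of the high state and 0.993 within the 13 of the low state. Hbb-bt and Hba-a1 correlated with Hbb-bs with r of 0.949 and 0.960 (rho 0.924 and 0.957, adjusted permutation p 2e-05 for each). The correlated values share a library and its scaling.

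The iron genes had lower correlations with Hbb-bs. Tfrc, Ftl1 and Slc40a1 had r of -0.11, 0.03 and 0.12 with Hbb-bs, with permutation p-values of 0.571, 0.858 and 0.430. Ireb2 had r of 0.37 (rho 0.079, permutation p 0.082 and 0.663), and its r was 0.12 without libraries 11 and 5. Fth1 had r of -0.56 (rho -0.24), with a permutation p of 0.0170 and 0.160. Its r was -0.21 without libraries 11 and 5, so the relation rested on them.

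**Figure D2:**
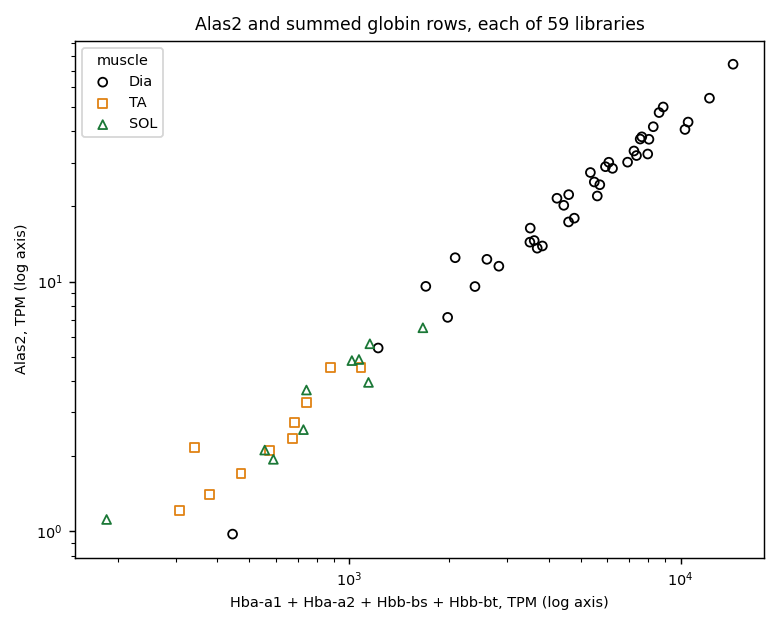
Alas2 TPM against the summed TPM of the 4 globin genes, both on log axes, for each of 59 libraries by muscle. The 3 muscles lie along a shared line, with Alas2 at 2.19 to 6.35 TPM per 1000 TPM of globin.

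The 3 genes most like Alas2 over the diaphragm libraries were globins. Among 13102 genes with a mean of at least 1 TPM, Hbb-bs, Hbb-bt and Hba-a1 had the highest r, at 0.986, 0.972 and 0.961, and 1810026J23Rik was also among the 5 highest, at 0.753. For Tfrc the 5 genes were Tmx2, Tsfm, Trp53inp2, Mrpl45 and Rtn4ip1 (r 0.796 to 0.826), and for Fth1 they were Uxt, Ubxn1, Tma7, Rpl28 and Dgcr6 (r 0.854 to 0.872), among genes with a mean of at least 5 TPM. For Slc40a1 they included Mup3, Aldh3a2, Papss2 and Aldh7a1 (r 0.658 to 0.692). These likenesses are descriptions over 39 libraries that share their scaling.

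The promoters of the 5 red-cell genes are shown because their transcripts moved together. Each is the stretch of 120 bases before the RefSeq start (GRCm38.p6), read along the gene's strand. Capitals mark the searched letters on either strand, which were the GATA motif (spelled AGATAA, the same with a final G, its variant TGATAA, and that with a final G), the box spelled CACCC, the box spelled CCAAT and the box spelled TATAA.
Alas2 (chrX:150547297-150547416, plus): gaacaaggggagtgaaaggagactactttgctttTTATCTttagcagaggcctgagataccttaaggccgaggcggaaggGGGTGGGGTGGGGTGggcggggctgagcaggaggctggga
Hba-a1 (chr11:32283552-32283671, plus): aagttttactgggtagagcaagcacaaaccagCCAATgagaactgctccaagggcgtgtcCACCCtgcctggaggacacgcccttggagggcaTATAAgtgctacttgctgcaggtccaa
Hba-a2 (chr11:32296372-32296491, plus): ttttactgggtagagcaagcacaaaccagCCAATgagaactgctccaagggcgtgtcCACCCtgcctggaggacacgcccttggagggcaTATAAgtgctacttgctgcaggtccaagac
Hbb-bs (chr7:103827929-103828048, minus): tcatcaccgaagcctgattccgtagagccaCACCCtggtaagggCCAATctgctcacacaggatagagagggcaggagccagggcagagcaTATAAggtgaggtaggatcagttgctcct
Hbb-bt (chr7:103813924-103814043, minus): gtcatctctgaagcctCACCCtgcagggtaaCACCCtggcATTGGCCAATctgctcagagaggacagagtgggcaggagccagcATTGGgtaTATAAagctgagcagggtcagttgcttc

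All 4 globin windows held the CCAAT box, the CACCC box and the TATAA box. The Alas2 window held 1 GATA motif and 3 matches of the CACCC box, and neither of the remaining boxes. Of 32851 windows of the same length, 21.3% held the CCAAT box, 31.7% the CACCC box, 11.8% the TATAA box and 12.8% a GATA motif. The Hba-a1 and Hba-a2 windows were identical in 117 of 123 aligned columns and those of Hbb-bs and Hbb-bt in 91 of 122. A match is not a site of binding.

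The paired globin genes are near-identical copies, so the split of reads between them is uncertain. The coding sequences of Hba-a1 and Hba-a2 differed in 1 of 429 positions and those of Hbb-bs and Hbb-bt in 1 of 444. The 3′ UTR of Hba-a1 (74 bases) matched that of Hba-a2 at every aligned base, while those of Hbb-bs and Hbb-bt were identical in 93 of 134 columns. The sum of the alpha globin rows is less exposed to this split, and it correlated with Hbb-bs with r of 0.987 (rho 0.980, adjusted permutation p 2e-05).

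The share of alpha globin assigned to Hba-a2 took 2 separate ranges. In 51 of 59 libraries Hba-a2 was between 1.09% and 6.95% of the alpha globin TPM, and in the other 8 it was between 34.9% and 61.5%. No library lay between these ranges. The 8 libraries were 6 of the diaphragm (1 CAC mock, 2 NONCAC mock, 1 CAC rFibcd1 and 2 NONCAC rFibcd1), 1 of NONCAC TA and 1 of NONCAC SOL. All 8 were of the low state. The number 62 stood on 1 library of each muscle, and all 3 of these had a high share, at 41.2% in diaphragm, 39.6% in TA and 34.9% in SOL.

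The ratio of alpha to beta globin TPM was between 0.856 and 1.13 in these 8 libraries (median 0.899) and between 0.693 and 1.16 in the other 51 (median 0.829). The 8 ratios lay above the median of all 59 libraries (0.844). The ratio was highest in library 11 and next in library 14 of CAC rFibcd1 diaphragm, which is 1 of the 8. Within the 33 diaphragm libraries of the low share, Hba-a2 correlated with Hbb-bs with r of 0.949 (rho 0.908, adjusted permutation p 2e-05). Across the beta globins, the share of Hbb-bt was between 5.64% and 20.4% with no such gap, and its lowest value was in library 11.

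**Figure D3:**
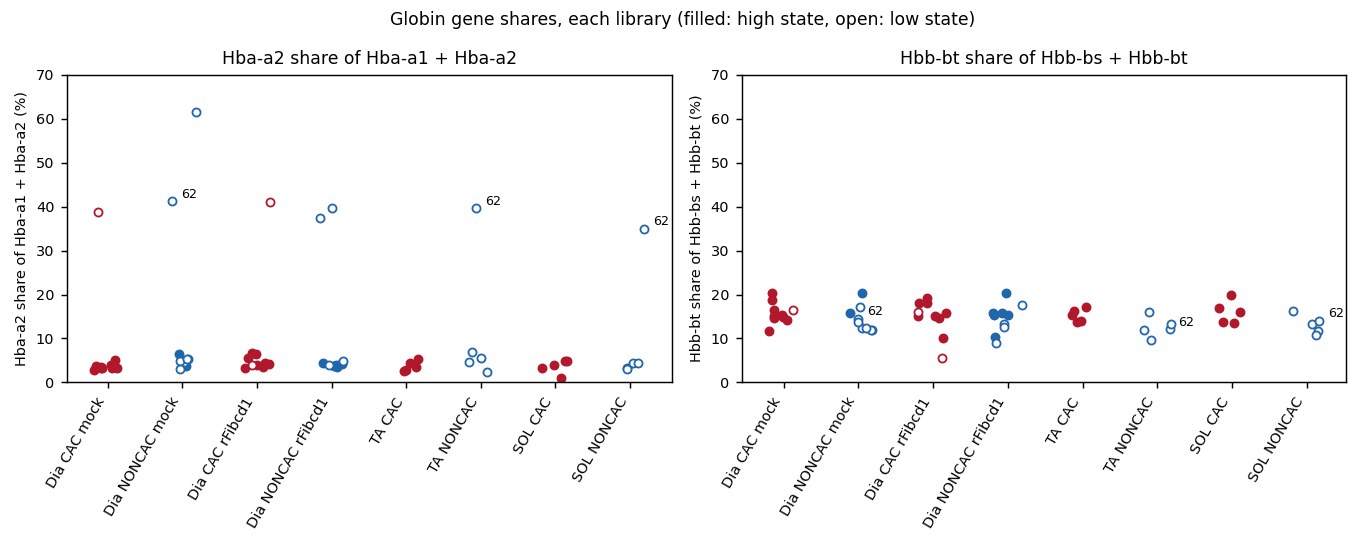
Share of Hba-a2 in the alpha globin TPM (left) and of Hbb-bt in the beta globin TPM (right), in percent, for each library by group. Filled points are high-state and open points low-state libraries, and the label 62 marks the 3 libraries with that number. On the left 8 open points lie between 34.9% and 61.5% and all other points under 7%, and on the right all points lie between 5.64% and 20.4%.

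The question of the melanoma comparison was whether the cachectic tumour goes with other levels of these genes than the non-cachectic one. In mock diaphragm 2 of 10 members were called, both ferritin chains, against 33.5% of all 13426 genes. Under rFibcd1 1 of 10 was called (Fth1), against 9.11%. In TA 4 of 10 were called (Tfrc lower, Fth1, Ftl1 and Slc40a1 higher), against 60.2% of 11105 genes. The 4 diaphragm comparisons share groups, so their values are given side by side. In SOL 0 of 9 were called (1 had an unadjusted p under 0.05, and Dunn's test called 0), against 25.1% of 11957 genes, and Slc40a1 did not pass the filter on low values. Over all genes the median log2 difference was 0.200 in mock diaphragm, 0.0837 under rFibcd1, 0.412 in TA and 0.0891 in SOL, and it came to 0.0192 or less in size after median-ratio scaling, so fold changes below are read beside these shifts. Mitochondrially encoded transcripts averaged 38.1% of TPM with the CAC and 47.5% with the NONCAC melanoma in mock diaphragm. The shares were 37.6% and 43.9% under rFibcd1, 38.8% and 48.5% in TA, and 30.5% and 41.1% in SOL. Their part in the shifts was not tested.

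Fth1, the ferritin chain that oxidizes iron, was the most abundant of the 5 iron genes. In mock diaphragm it was at 2968 TPM at the lowest, 3359 at the median and 3930 at the highest with the CAC melanoma, and at 2477, 2665 and 2902 TPM with the NONCAC melanoma. The groups did not overlap. The difference was 0.35 (SE 0.108, limma adjusted p 0.0121), and it was 0.11 (adjusted p 0.658) after median-ratio scaling.

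In rFibcd1 diaphragm Fth1 was at 2762, 3580 and 7828 TPM with the CAC and at 2706, 2869 and 3444 TPM with the NONCAC melanoma, and these ranges overlap. The difference was 0.32 (SE 0.105, adjusted p 0.0492). Library 11 held the highest value, and without it the CAC mean was 3436 ± 403 (SD, n = 9) in place of 3875 ± 1440 (SD, n = 10). The call was lost after median-ratio scaling (0.24, adjusted p 0.308), with the high-state libraries alone (0.17, adjusted p 0.404) and in 29 of 39 fits that left out 1 library. Without library 11 the difference was 0.20 and still called.

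In TA Fth1 was at 2089, 2184, 2439, 2605 and 5185 TPM with the CAC and at 1768, 1818, 1830, 1833 and 1837 TPM with the NONCAC melanoma. Every CAC library was above every NONCAC library. The difference was 0.58 (SE 0.207, adjusted p 0.0300), and it was 0.09 (adjusted p 0.586) after median-ratio scaling. Without any 1 of the 5 NONCAC libraries the adjusted p was between 0.0505 and 0.0591, and it was 0.0668 with no filter on low values. Without CAC library 8, the highest, the difference was 0.35 and still called. In SOL the difference was 0.22 (SE 0.101, adjusted p 0.132).

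Ftl1, the chain that helps to lay down the iron core, moved further than Fth1. In mock diaphragm it was at 554, 1147 and 1466 TPM with the CAC and at 465.6, 637 and 1150 TPM with the NONCAC melanoma. The difference was 0.66 (SE 0.194, limma adjusted p 0.00962). It was 0.42 (adjusted p 0.0828) after median-ratio scaling and 0.47 (adjusted p 0.120) with library state in the model. Under rFibcd1 the difference was 0.53 (SE 0.189, adjusted p 0.0691), and it was called in 5 of 39 fits that left out 1 library.

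In TA Ftl1 was at 298, 303, 314, 379 and 642 TPM with the CAC and at 158, 166, 180, 183 and 200 TPM with the NONCAC melanoma, without overlap. The difference was 1.06 (SE 0.190, adjusted p 0.00188) and remained called after median-ratio scaling at 0.56 (adjusted p 0.00209). In SOL it was at 369, 471, 536, 599 and 1102 TPM against 352, 408, 423, 474 and 513 TPM, a difference of 0.41 (SE 0.239, adjusted p 0.227). Without CAC library 8 the SOL difference was 0.18.

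Among NONCAC muscles Tfrc was lower in diaphragm than in TA by -1.71 (SE 0.437, limma adjusted p 0.000771) and than in SOL by -1.48 (SE 0.437, adjusted p 0.00704), while Ftl1 was higher in diaphragm by 1.85 and 0.57. Fth1 was higher in diaphragm than in TA by 0.56, which became -0.02 after median-ratio scaling and was not called by Dunn's test (adjusted p 0.134), and lower than in SOL by -0.32. Against SOL neither ferritin call held with no filter on low values (adjusted p 0.0508 for Ftl1 and 0.0634 for Fth1) or by Dunn's test (0.216 and 0.143). Leaving out 1 library ended the Ftl1 call in 4 of 39 fits (diaphragm 64, SOL 62, 63 or 64) and the Fth1 call in 3 (SOL 61, 63 or 64). The Tfrc call against SOL was also lost by Dunn's test (adjusted p 0.0779). Over the 8 group means Tfrc was highest in NONCAC TA (60.6 TPM) and lowest in CAC TA (12.4 TPM), and the only neighbours in this order that were further apart than the larger SD were NONCAC SOL (50.8 TPM) and NONCAC rFibcd1 diaphragm (31.4 TPM).

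Tfrc, which takes up transferrin-bound iron, had the largest melanoma difference of the 10 genes, in TA. It was at 6.50, 10.00, 12.2, 15.5 and 17.7 TPM with the CAC and at 39.1, 44.8, 65.0, 76.3 and 78.0 TPM with the NONCAC melanoma. The groups were far apart, and the log2 difference was -2.22 (SE 0.261, limma adjusted p 0.000165), with a 95% interval from -2.79 to -1.65. After median-ratio scaling it was -2.72. No library that was left out ended this call.

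In SOL Tfrc was at 13.3, 15.5, 23.2, 45.5 and 54.1 TPM with the CAC and at 37.8, 44.3, 46.3, 53.8 and 72.0 TPM with the NONCAC melanoma. The 2 highest CAC libraries lay among the NONCAC ones. The difference was -0.90 (SE 0.353, adjusted p 0.0825), and it was called without CAC library 9 (-1.10, adjusted p 0.0443) or 10 (-1.16, adjusted p 0.0234).

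In the diaphragm Tfrc spread widely within each group. In mock libraries it was at 3.69, 10.6 and 43.8 TPM with the CAC and at 9.68, 13.1 and 40.3 TPM with the NONCAC melanoma, a difference of -0.41 (SE 0.389, 95% interval -1.196 to 0.38, adjusted p 0.413). Among the NONCAC mock libraries the 5 numbered 61 to 65 were at 9.68 to 13.1 TPM and the other 4 at 22.4 to 40.3 TPM. All 5 of the former and 1 of the latter were of the low state, and the part of the state in this split was not tested.

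The melanoma difference of Tfrc was 1.81 higher in diaphragm than in TA on the log2 scale (SE 0.613, limma adjusted p 0.0721). With the column numbers as a replicate block it was 2.93 (adjusted p 3.42e-05), and after median-ratio scaling 2.09 (adjusted p 0.0375). Muscle differences in the block fit rest on the numbers found in all 3 muscles, 6 to 10 and 61 to 65. The other mock diaphragm libraries, among them all NONCAC ones of higher Tfrc, do not bear on them. The values 1.81 and 2.93 therefore come from different sets of libraries. Against SOL the difference between the melanoma effects of Tfrc was 0.49 (adjusted p 0.755). With the block it was 1.61 (adjusted p 0.00833), where the pairing of numbers is less certain. Between TA and SOL it was -1.32 (adjusted p 0.161), and adjusted p 0.00568 with the block. Of the 10 members 0 had a called difference of the melanoma effect between any pair of muscles in limma without the block (unadjusted p under 0.05 for 2, 0 and 1), against 5.04% of all genes for diaphragm against TA, 2.52% for diaphragm against SOL and 20.4% for TA against SOL. With the block there were 2 members for diaphragm against TA, 1 for diaphragm against SOL and 3 for TA against SOL, against 16.2%, 6.8% and 42.0% of all genes.

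**Figure D4:**
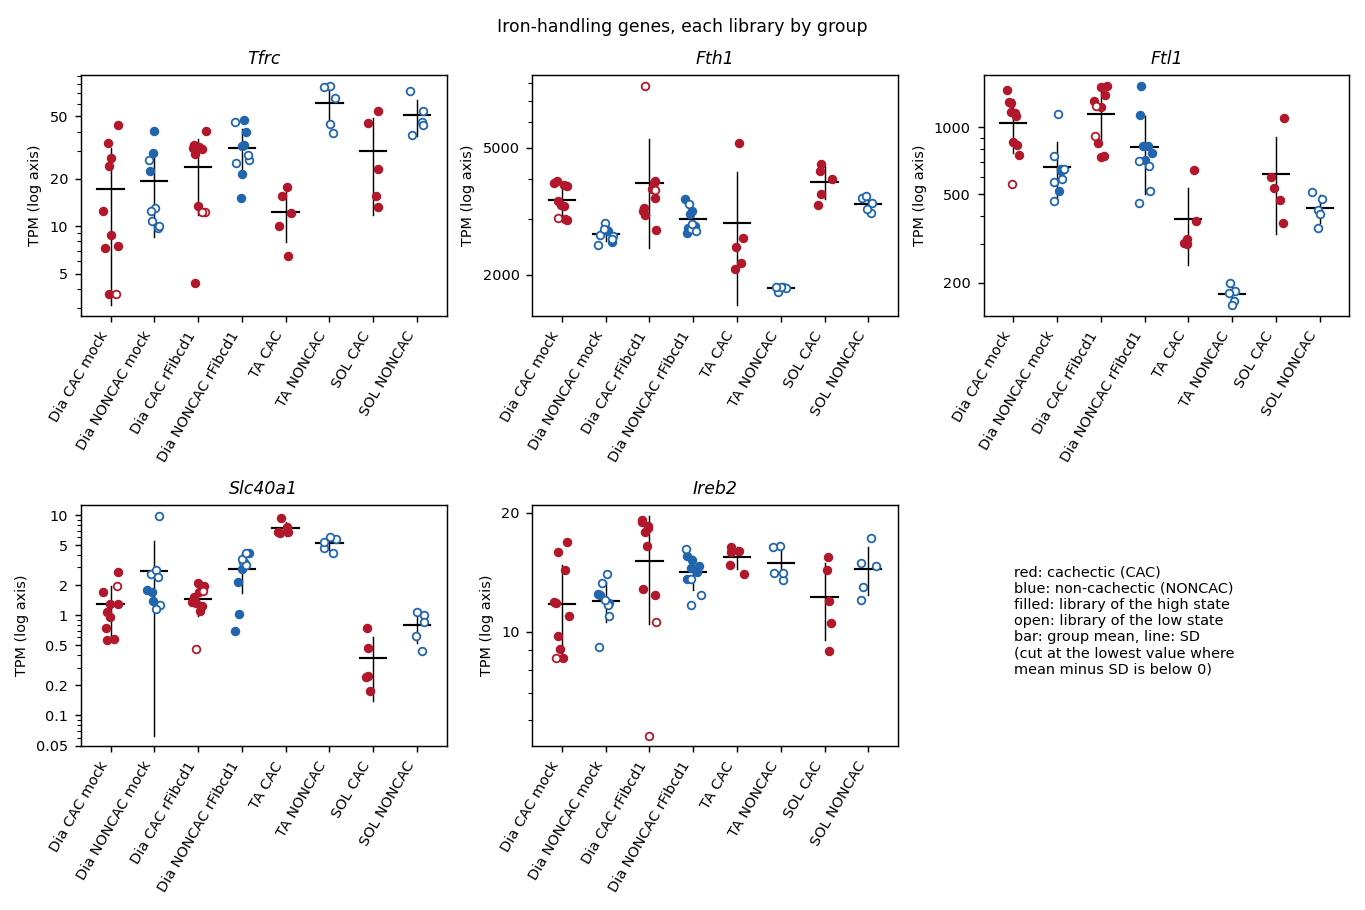
TPM (log axis) of the 5 iron-handling genes in each of 59 libraries, by group, with symbols as in the plot of red-cell genes. By group mean Tfrc is lowest in CAC TA (6.50 to 17.7) and highest in NONCAC TA (39.1 to 78.0), and Slc40a1 is highest in TA and lowest in SOL.

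Slc40a1, the iron exporter, was low in every muscle and its group means ordered TA, diaphragm, SOL. In NONCAC mice it was at 4.22 to 6.02 TPM in TA, at 1.16, 1.80 and 9.83 TPM in mock diaphragm and at 0.441 to 1.09 TPM in SOL. It was lower in diaphragm than in TA by -0.91 (SE 0.233, limma adjusted p 0.000762) and higher than in SOL by 0.88 (SE 0.233, adjusted p 0.00292). Neither was called by Dunn's test (adjusted p 0.313 and 0.114). In TA it rose with the CAC melanoma, with 6.62, 6.71, 6.73, 7.63 and 9.36 TPM against 4.22, 4.70, 5.41, 5.83 and 6.02 TPM. The difference was 0.43 (SE 0.130, adjusted p 0.0164), close to the median gene of TA, and it was 0.01 (adjusted p 0.979) after median-ratio scaling.

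In the diaphragm Slc40a1 pointed the other way. With mock injections it was at 0.566, 1.19 and 2.69 TPM with the CAC melanoma, a difference of -0.57 (SE 0.229, adjusted p 0.0506), and it was called after median-ratio scaling (-0.71, adjusted p 0.0299), with a pseudocount of 0.1 (-0.86, adjusted p 0.0450) and in 11 of 39 fits that left out 1 library. Under rFibcd1 it was at 0.462, 1.44 and 2.10 TPM against 0.692, 3.30 and 4.21 TPM, a difference of -0.60 (SE 0.223, adjusted p 0.0803). The difference between the diaphragm and TA effects was -1.003 (SE 0.327, adjusted p 0.0636), and -1.39 (adjusted p 0.00629) with the replicate block.

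A single diaphragm library set the top of the NONCAC mock range. Library 64 held 9.83 TPM of Slc40a1 and also the most liver transcripts, with 10076 TPM over 7 liver markers, 5724 of them of Alb. The next diaphragm library had 2663 TPM of these markers and the median one 51.8 TPM. In the other 8 NONCAC mock libraries Slc40a1 averaged 1.89 ± 0.645 TPM (SD), and without library 64 the difference between melanomas in mock diaphragm was -0.36 and not called. Other Slc40a1 differences became called in limma fits without it. These were the one under rFibcd1 (-0.60, adjusted p 0.0334) and the effect difference of TA against SOL (0.83, adjusted p 0.0263), both unchanged in size. The effect difference of diaphragm against TA was also called, at -0.79 (adjusted p 0.0430). Ftl1 was also highest of its group in library 64, at 1150 TPM. The part of liver RNA in these values was not tested.

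Ireb2, which senses iron and binds the hairpins, was the steadiest member. Its group means were between 11.8 and 15.4 TPM, and no neighbours in the order of the 8 means differed by more than the larger SD. It was called in none of the 4 melanoma comparisons, with a difference of -0.05 (SE 0.148) in mock diaphragm, 0.05 (SE 0.102) in TA and -0.23 (SE 0.145) in SOL. After median-ratio scaling its difference in TA was -0.42 (adjusted p 0.0159), which reverses the sign. It was lower in NONCAC diaphragm than in TA by -0.30 (SE 0.128, adjusted p 0.0371), and by -0.84 after median-ratio scaling. That call was lost by Dunn's test (adjusted p 0.0504), with no filter on low values (adjusted p 0.0542) and in 4 of 39 fits that left out 1 library (diaphragm 62 or 63, TA 61 or 65).

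The red-cell genes showed no called melanoma difference in any muscle. In mock diaphragm Hbb-bs was at 709, 2268 and 6661 TPM with the CAC and at 1174, 2104 and 5463 TPM with the NONCAC melanoma, which overlap almost wholly. The difference was 0.03 (SE 0.460), with a 95% interval from -0.90 to 0.96. The intervals of Alas2, Hba-a1 and Hbb-bt in mock diaphragm ran from -0.56 to 1.27, -0.65 to 1.21 and -0.91 to 1.29. The signs of Alas2, Hba-a1, Hbb-bs and Hbb-bt turned with library state in the model, where Hbb-bs was at -0.38 (adjusted p 0.665). Hba-a2 had a negative difference, between -1.21 and -0.34 over the fits that left out 1 library, and was not called.

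In TA the summed globin rows were at 341, 575, 685, 745 and 879 TPM with the CAC and at 308, 379, 471, 673 and 1086 TPM with the NONCAC melanoma. Without NONCAC TA library 65, the highest of its group, Alas2 (0.56, adjusted p 0.0347), Hba-a1 (0.66, adjusted p 0.0497) and Hbb-bt (0.85, adjusted p 0.0381) were called higher with the CAC melanoma. In SOL the summed globins were at 185, 591, 743, 1019 and 1155 TPM against 556, 728, 1070, 1143 and 1669 TPM, and the 5 red-cell genes had differences of -0.22 to -1.38, with no call.

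**Figure D5:**
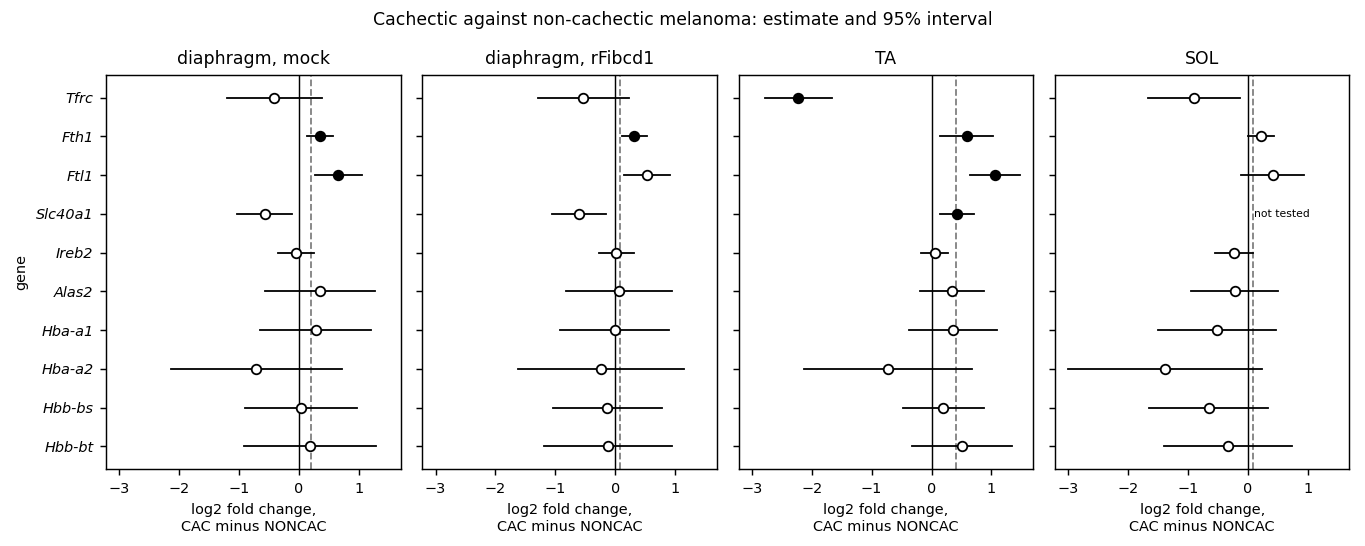
Log2 fold change (CAC minus NONCAC) with its 95% interval for the 10 genes in 4 comparisons. Filled points passed an adjusted p of 0.05, the dashed line is the median of all genes tested, and Slc40a1 was not tested in SOL. Tfrc in TA has the largest called value (-2.22), and Hba-a2 the widest interval of each comparison.

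The question of the rFibcd1 comparison was whether the protein goes with a change in the diaphragm. No member was called with either melanoma (limma, 0 of 10 each, against 0.0447% and 0.417% of all genes), 1 and 0 members had an unadjusted p under 0.05, and Dunn's test called 0 in each. Tfrc had the largest values of any member, 0.65 (SE 0.378, adjusted p 0.558) with the CAC and 0.77 (SE 0.389, adjusted p 0.291) with the NONCAC melanoma. With the 2 NONCAC groups fitted alone, Tfrc (adjusted p 0.0479), Fth1 (0.15, adjusted p 0.0390) and Ireb2 (0.22, adjusted p 0.0314) were called higher under rFibcd1, against 19.6% of all genes in that fit. Among high-state libraries alone Tfrc was at -0.02 there, and Ireb2 was called with the CAC melanoma (0.46, adjusted p 0.0280), against 5.57% of all genes. The melanoma effect under rFibcd1 minus that under mock was called for 0 of 10 members (0 at an unadjusted p under 0.05), against 0.0223% of all genes, with values between -0.31 and 0.48.

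Other genes of iron handling were described from lists that include the members, and their counts are read beside the 33.5%, 60.2% and 25.1% of all genes called in mock diaphragm, TA and SOL. Counts after median-ratio scaling are read beside 16.5%, 40.0% and 28.6% of all genes, of which 43.6%, 46.7% and 58.2% were higher. Under rFibcd1 9.11% of all genes were called. There 1 of 9 uptake genes (Lcn2, 2.23), 1 of 8 storage and export genes (Fth1) and 1 of 17 mitochondrial genes (Slc25a28, 0.48) rose, 0 of 10 regulators and 0 of 12 heme synthesis genes were called, and of 10 genes of heme transport and breakdown 1 rose and 1 fell. The melanoma effect under rFibcd1 minus that under mock was called by limma for 0 of the 66 genes tested from these 6 lists (9 had an unadjusted p under 0.05). Of the 11 iron uptake genes, 9 were tested in mock diaphragm and 5 rose, with a median difference of 0.44. In TA 5 of 8 rose and 1 fell (median 0.69), and in SOL 3 of 8 rose and 1 fell (median 0.16). After median-ratio scaling 3 were higher and 0 lower in mock diaphragm, 2 and 3 in TA, and 3 and 1 in SOL. Lcn2, which binds iron-carrying siderophores, rose from 4.13 ± 1.78 to 36.7 ± 36.5 TPM (SD) in mock diaphragm, by 2.43 (SE 0.466, limma adjusted p 0.000253), and also by 4.15 in TA and 2.38 in SOL. Slc39a14, an importer of iron that is not bound to transferrin, rose in all 3 muscles, by 1.32 in mock diaphragm, 1.32 in TA and 1.63 in SOL. It was not called in TA after median-ratio scaling (0.95, adjusted p 0.0504), nor in rFibcd1 diaphragm (0.79, SE 0.347, adjusted p 0.144). Slc11a2, the divalent metal transporter, rose by 0.68 in SOL and by 0.31 in mock diaphragm (0.09, adjusted p 0.372, after median-ratio scaling), and in TA it was at 0.20 (adjusted p 0.252) and, after that scaling, at -0.26 (adjusted p 0.00355). The metal reductase Steap4 rose by 0.75 in mock diaphragm and by 1.14 in TA, and was at 0.19 (adjusted p 0.572) in SOL.

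Of the storage and export genes 5 of 8 rose in mock diaphragm (median 0.30), 6 of 7 in TA (median 0.58) and 2 of 6 in SOL (median 0.26), and none fell. After median-ratio scaling 1 was higher and 1 lower in mock diaphragm, 2 and 1 in TA, and 2 and 0 in SOL, against 16.5%, 40.0% and 28.6% of all genes. Cp, a ferroxidase that works beside Slc40a1, rose by 0.72 in mock diaphragm, 1.08 in TA and 0.81 in SOL. The iron chaperones Pcbp1 and Pcbp2 rose by 0.28 and 0.26 in mock diaphragm and by 0.58 and 0.61 in TA, and neither was called in either muscle after median-ratio scaling. In SOL Pcbp1 rose by 0.31 (adjusted p 0.0355) and remained called after that scaling (0.23, adjusted p 0.0293). Of the regulators 2 of 10 rose in mock diaphragm, 3 of 7 in TA and 2 of 8 in SOL, and after median-ratio scaling 1 was higher and 0 lower in mock diaphragm, 1 and 2 in TA, and 1 and 1 in SOL. Epas1, a hypoxia factor, rose in each of them, by 0.40, 0.45 and 0.30, with no call after median-ratio scaling in any.

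The heme synthesis list includes Alas2. Of its 12 genes, 3 rose in mock diaphragm, 4 rose and 2 fell in TA, and 1 rose and 1 fell in SOL, with medians of 0.07, 0.27 and -0.10. After median-ratio scaling 0 were higher and 2 lower in mock diaphragm, 1 and 5 in TA, and 1 and 1 in SOL, against 16.5%, 40.0% and 28.6% of all genes. Alas1, the housekeeping form of the enzyme, was at 32.6 ± 3.01 TPM (SD, n = 5) with the CAC and 59.1 ± 8.55 TPM (SD, n = 5) with the NONCAC melanoma in TA, and fell by 0.83 (SE 0.119, limma adjusted p 0.000581). It was at -0.13 (adjusted p 0.586) in mock diaphragm and -0.03 (adjusted p 0.889) in SOL. Alad, the next enzyme of the pathway, fell by 0.52 in TA and by 0.98 in SOL, and was at -0.24 (adjusted p 0.222) in mock diaphragm. Both falls in TA were larger after median-ratio scaling, at -1.32 and -1.01.

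Genes of heme transport and breakdown rose in 6 of 10 and fell in 1 of 10 cases in mock diaphragm, in 7 and 1 of 9 in TA, and in 1 and 0 of 9 in SOL. After median-ratio scaling 4 were higher and 1 lower in mock diaphragm, 5 and 1 in TA, and 1 and 0 in SOL, against 16.5%, 40.0% and 28.6% of all genes. Hp, which captures free hemoglobin, was at 410 ± 262 TPM (SD, n = 10) with the CAC and 69.1 ± 134 TPM (SD, n = 9) with the NONCAC melanoma in mock diaphragm, and rose by 3.56 there, by 3.19 in TA and by 4.39 in SOL. Cd163, the macrophage receptor for that complex, rose by 1.56 in mock diaphragm and 1.14 in TA, and was at 0.12 (adjusted p 0.808) in SOL. Under rFibcd1 neither was called, with differences of 2.00 (SE 0.718, adjusted p 0.0702) for Hp and 0.69 (SE 0.275, adjusted p 0.107) for Cd163. Hmox1, which breaks heme down, rose by 0.84 in mock diaphragm, 0.89 under rFibcd1 and 1.61 in TA, and was at 0.11 (adjusted p 0.703) in SOL. Myoglobin (Mb), the heme protein of muscle, fell by 0.58 in mock diaphragm, 0.74 under rFibcd1 and 1.63 in TA, and was at -0.71 (adjusted p 0.137) in SOL. Of 17 genes of mitochondrial iron and iron-sulfur assembly, 2 rose in mock diaphragm, 6 rose and 1 fell in TA, and 4 rose and 3 fell in SOL. After median-ratio scaling 0 were higher and 3 lower in mock diaphragm, 1 and 10 in TA, and 2 and 3 in SOL, against 16.5%, 40.0% and 28.6% of all genes. Slc25a28, a mitochondrial iron importer, rose in each of these, by 0.66, 1.03 and 0.70, and was not called after median-ratio scaling in mock diaphragm (0.43, adjusted p 0.112) or under rFibcd1 (0.40, adjusted p 0.156).

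Markers of other cells moved with the melanoma as well. The summed level of 7 macrophage markers was 173 to 609 TPM in CAC and 102 to 237 TPM in NONCAC mock diaphragm, with 4 of 7 genes called higher, and 25.7 to 165 against 13.3 to 31.7 TPM in TA, with 6 of 6. That of 7 neutrophil markers was 11.1 to 60.97 against 3.99 to 24.8 TPM in mock diaphragm (3 of 4 higher) and 7.84 to 56.2 against 1.203 to 4.12 TPM in TA (2 of 2 higher). Of the 6 endothelial markers 4 rose in mock diaphragm, and 4 rose and 1 fell in TA. Platelet markers summed to 14.6 to 82.3 against 15.3 to 50.7 TPM in mock diaphragm, with 2 of 5 higher, and in TA the 1 tested, Pf4, rose by 1.03 (adjusted p 0.0328), with 0.65 (adjusted p 0.142) after median-ratio scaling. In SOL 1 of 7 macrophage, 2 of 2 neutrophil and 0 of 2 platelet markers rose, and 2 of 6 endothelial markers rose and 1 fell. After median-ratio scaling 4 macrophage, 2 neutrophil and 1 platelet markers were higher in mock diaphragm, and 2 endothelial markers were higher and 1 lower. In TA 5 macrophage and 2 neutrophil markers were then higher, and 3 endothelial markers were higher and 1 lower, and in SOL 1 macrophage, 2 neutrophil and 1 endothelial markers were higher and 2 endothelial markers lower. These counts stand beside the shares of all genes given for the lists above. For those after median-ratio scaling the shares are 16.5% in mock diaphragm, 40.0% in TA and 28.6% in SOL. No defining marker of these 4 lists was at 0 throughout the diaphragm libraries. Liver markers summed to 6.72 to 2663 against 1.97 to 10076 TPM in mock diaphragm, with 0 of 7 called (0 also after median-ratio scaling). The part of these cells in the ferritin, Hp, Cd163 and Lcn2 values was not tested.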

How the data were processed

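Muscle RNA was sequenced in 59 libraries of 8 groups. Per the labels, libraries were made with a stranded TruSeq kit and sequenced on a HiSeq, whereas the study's methods name another TruSeq kit and a NovaSeq. The authors trimmed the reads, mapped them to mm10 in CLC Genomics Workbench and deposited TPM values, 1 column per library. No column was left unmapped (0). TPM has the same sum in each library, so depth is unknown and the precision of low values cannot be stated. The number of libraries sets the error of each comparison. Where labels name no separate animals, p-values measure the spread between these libraries.

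Members and lists were chosen with earlier results of these data known. Genes with at least 1 TPM in as many libraries as the smallest group were fitted as log2(TPM + 1) in limma 3.58.1 (R 4.3.3) with a trend in the variance and Benjamini-Hochberg adjustment over all genes, called at 0.05. All fold changes are on this scale, which understates changes of low genes. One fit held the 4 diaphragm groups, 1 each the TA and SOL groups and 1 the 6 groups without rFibcd1. In simulated data of independent values the script gave the right sign for known changes, which were larger than most melanoma differences of the members. Library states and shared shifts were not simulated. Alternatives were a pseudocount of 0.1, no filter, a mean of at least 5 TPM, median-ratio scaling, Dunn's tests (as in the study), fits of 2 groups, leaving out each library, library state and high-state libraries alone. Named list genes were those called with a mean of at least 5 TPM, at most 3 per list by size, and every red cell marker.

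The headings of the table carry numbers that recur between muscles but are not the replicate numbers of the labels, so columns were mapped to groups. Deviations of same-numbered libraries from group means correlated with r of 0.130 to 0.520 for diaphragm and TA (10 of 10 over 0.1), 0.184 to 0.537 for TA and SOL (10 of 10) and 0.00892 to 0.527 for diaphragm and SOL (8 of 10). The numbers were taken to pair diaphragm with TA and TA with SOL, from the data and not the labels, and the replicate block was added after the headings were seen. For diaphragm and SOL the same number was closest in 6 of 10 cases, so that pairing is less certain. Mock diaphragm libraries whose number is in no limb muscle do not bear on muscle differences in the block fit. Transcripts, positions and UTRs came from GENCODE M21 and promoters from RefSeq (9 of 10 members matched, GRCm38.p6). No 2 columns were identical (0 pairs). Sequences were aligned with biopython 1.88, permutations run with numpy 2.4.6 and figures drawn with matplotlib 3.10.9. Some genes that the naming rule selects are not reported here.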

Additional observations from a re-analysis of the deposited data

Results flagged for a closer look

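Of 80 sets of values examined (10 genes in 8 groups), 10 held a library apart from the others of its group by Dixon's criterion at the 95% level, where chance gives about 4.0. The diaphragm library numbered 11 (CAC rFibcd1) accounted for 4 of them. It had the highest Fth1 of its group, 7830 TPM with the next library at 3943 TPM, and the lowest Slc40a1 (0.462 TPM, next 1.11), Ireb2 (5.48 TPM, next 10.6) and Hbb-bt (11.6 TPM, next 102). The CAC TA library numbered 8 had the highest Fth1 of its group, 5190 TPM with the next at 2605 TPM. The NONCAC TA library numbered 63 had the lowest Fth1, 1770 TPM with the next at 1818 TPM, in a group that spans a narrow range.

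The NONCAC mock diaphragm library numbered 64 had the highest Slc40a1, 9.83 TPM with the next at 2.84 TPM, and the highest summed liver markers. Hba-a2 stood apart in the CAC mock diaphragm library numbered 22 (2310 TPM, next 231) and in the NONCAC SOL library numbered 62 (177 TPM, next 23.6), both of the high share of alpha globin. Hbb-bt was lowest in the NONCAC rFibcd1 diaphragm library numbered 46, at 94.6 TPM with the next at 254 TPM.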

How the results depend on the processing

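Counts of called members stayed within 1.5 times the value in the report in 67 of 84 recomputed counts that left out no library. In mock diaphragm 1 member was called in place of 2 after median-ratio scaling and with library state in the model. Under rFibcd1 0 were called in place of 1 with no filter, after median-ratio scaling, by Dunn's test, in a fit of 2 groups and with high-state libraries alone. For rFibcd1 against mock 1 was called with the CAC melanoma in high-state libraries and 3 with the NONCAC melanoma in a fit of 2 groups. Between diaphragm and SOL 0 were called by Dunn's test in place of 9. Between TA and SOL 5 were called in a fit of 2 groups and 7 with the replicate block in place of 3. Differences of the melanoma effect were called for 1 member (median-ratio scaling) and 2 (replicate block) in diaphragm against TA, for 1 (replicate block) in diaphragm against SOL, and for 1 (pseudocount of 0.1) and 3 (replicate block) in TA against SOL, in place of 0. The block changed no other count by over 1.5 times.

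Leaving out 1 library gave 2 to 3 called members in mock diaphragm, 0 to 2 under rFibcd1, 3 to 6 in TA, 0 to 1 in SOL, 9 to 10 between diaphragm and TA, 7 to 9 between diaphragm and SOL, 3 to 4 between TA and SOL, and 0 to 1 for the effect differences of diaphragm against TA and TA against SOL. Signs turned for Hbb-bs in mock diaphragm (-0.14 to 0.22), Alas2 (-0.40 to 0.015) and Hbb-bt (-0.59 to 0.087) in SOL, Fth1 in diaphragm against TA effects (-0.33 to 0.00057), Slc40a1 in diaphragm against SOL effects (-0.26 to 0.038) and Fth1 for rFibcd1 with the CAC melanoma (-0.0020 to 0.16).

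Other signs turned in mock diaphragm with library state in the model (Alas2 -0.11, Hba-a1 -0.25, Hbb-bs -0.38, Hbb-bt -0.42), with high-state libraries alone (-0.048, -0.33, -0.39 and -0.41) and after median-ratio scaling (Hbb-bs -0.21, Hbb-bt -0.051). Median-ratio scaling also turned Ireb2 (-0.42), Hba-a1 (-0.14) and Hbb-bs (-0.30) in TA, Fth1 between diaphragm and TA (-0.018), its effect differences (0.025, -0.026 and -0.051) and Fth1 for rFibcd1 with the NONCAC melanoma (-0.026). A pseudocount of 0.1 turned the Slc40a1 effect of diaphragm against SOL (0.14). High-state libraries turned Fth1 (-0.036, CAC) and Tfrc (-0.016, NONCAC) for rFibcd1. The cause was not tested. Over all genes, median-ratio scaling left 2191 calls in mock diaphragm in place of 4501 and moved the share of higher calls from 92.0% to 43.6% there and from 93.7% to 46.7% in TA. Depth is unknown, so the noise of low values such as Slc40a1 in SOL cannot be separated from the spread between libraries.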
